A study of Mus musculus with 6 samples.

Results

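The wells described here are single endothelial cells of the mouse kidney chosen by genes that mark arterial endothelium. A well was included when it came from the endothelia gate of the sort and the summed CPM (read counts scaled to 1000000 reads on genes) of Ssu2, Tspan8, S100a4 and Efhd1 reached 300. It also had to hold under 200 CPM of Plvap, a protein of fenestrated capillaries, under 100 CPM of Ehd3, a marker of glomerular endothelium, and under 100 CPM of the adhesion molecule Sele. Wells with at least 50 CPM of Apln together with at least 100 CPM of Esm1 were left out, and every well had to hold at least 1000 genes and 20000 reads on genes. The rule found 131 wells, out of 1129 kept wells of the endothelia gate and 2235 kept wells in all. Measured values chose these wells, so their levels against other wells are given as a description, without a test.

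The study sorted kidney cells of healthy mice and of mice 2 days and 10 days after unilateral ureteric obstruction (UUO), a model in which the outflow of a single kidney is blocked, and sequenced them with Smart-seq2, a plate-based method that reads along the whole transcript. Each of the 6 plates mixed cells of 1 healthy mouse, 1 mouse of day 2 and 1 mouse of day 10. A plate layout gives each well a gate, a condition and 1 of the numbers 1 to 4; that number was taken to mark the mouse of a condition. Strain, genotype, age and the sorting antibodies are not stated in the labels, and what the groups share beyond the tissue is therefore not described here.

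Arterial endothelium lines the vessels that bring blood to the glomeruli and to the descending vasa recta of the medulla. In many organs it is set apart from capillary and venous endothelium by Notch ligands and their targets, by the transcription factor Sox17, by the gap junction proteins connexin 37 (Gja4) and connexin 40 (Gja5), and by elastic fibre proteins. It also releases vasoactive factors, among them endothelin 1 (Edn1) and nitric oxide.

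Depth was similar in the class and around it. The median of the 131 wells was 355331 reads on genes (range 47110 to 623349), with 2843 genes detected, against 330918 reads in 83 Plvap-positive wells and 413847 reads in 410 Ehd3-positive wells of the same gate. No well of the series held the same counts as another. Each condition and gate occupied a fixed set of plate columns on all 6 plates, so that a condition and its columns cannot be told apart. Replicates are sums of the wells of a condition and number, with 7, 10, 16 and 25 healthy wells, 7, 2, 8 and 15 wells of day 2, and 10, 7, 13 and 11 wells of day 10 for numbers 1 to 4. The sum of day 2 with number 2 held 2 wells, under the minimum of 3, and entered no fit, which left 11 sums of 1939481 to 6763293 reads.

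The 4 rule genes did not mark the same wells. Tspan8, a tetraspanin of the cell surface (chr10:115816817-115849893, GRCm38.p6), reached 50 CPM, the level called detected here, in 102 of 131 wells, with a median of 2100 CPM. S100a4, a small calcium-binding protein, was detected in 108 wells (median 715 CPM), and Efhd1, a calcium-binding protein of mitochondria, in 67 (median 90.4 CPM). Ssu2 (chr6:112359322-112388199) was detected in 63 wells and had no read in 62. All 4 genes were detected together in 28 wells, 3 of them in 43, 2 in 39 and 1 in 21; the commonest set after all 4 was Tspan8, S100a4 and Efhd1 without Ssu2, in 21 wells, and 12 wells entered with S100a4 as the sole detected gene. Edn1, given as a marker of these cells but not used by the rule, was detected in 67 wells and had no read in 50.

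The limit on the rule sum fell in a sparse range and the limit on Plvap did not. The 4 lowest sums of the rule genes inside the class were 330, 347, 430 and 456 CPM, and the 4 highest outside it among wells that met the other terms were 257, 166, 151 and 121 CPM. For Plvap the 4 highest inside were 200, 195, 191 and 189 CPM, and the nearest outside were 207, 212, 220 and 241 CPM. A Plvap limit of 50 CPM would leave 92 of the 131 wells. Of 305 endothelia-gate wells with a rule sum of at least 300 CPM, 174 were left out by the other terms, 103 of them for Plvap and 88 for Ehd3. The same numeric rule applied to the mesenchyme gate met 58 of 1106 wells, of which 1 had Pecam1 at 50 CPM or more. Those wells held no Ssu2 at 50 CPM and a median of 3667 CPM of the smooth muscle actin gene Acta2, so that outside the endothelia gate the 4 genes did not pick endothelial cells.

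The arterial label was set beside a list of 27 arterial genes and lists for other vessels. The same reads chose the wells, and the lists were chosen with earlier results of these data known. The comparison is therefore a description and no independent check of the label. Levels by class are given as mean ± SD over the 4 numbers, here and below, unless a condition is named. Each such sum pools the wells of all 3 conditions, whose mix differs between classes. The Plvap-positive sum of number 2 held 1 healthy well, 1 of day 2 and 3 of day 10. Sox17 averaged 1223 ± 295 CPM in arterial wells and was detected in 90.8% of them. It averaged 428 ± 78.8 CPM in Plvap-positive wells and 257 ± 88.6 CPM in Ehd3-positive wells. Gja4 averaged 1109 ± 284 CPM, against 385 ± 332 and 334 ± 181 CPM. The tyrosine kinase Bmx averaged 151 ± 85.2 CPM, against 40.8 ± 14.5 and 2.70 ± 5.31 CPM. Over the list, 8 of the 25 genes that reached 50 CPM in some class were above both other classes with no overlap between the sums of the 4 numbers, and 0 were below both. That share is read against 3.11% of 5625 genes that were above both classes in the same way, and 1.65% that were below both.

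Other arterial genes did not follow the label. Gja5 averaged 222 ± 65.3 CPM in arterial wells and 340 ± 186 CPM in Ehd3-positive wells, and was detected in 28 of 131 arterial wells. The Notch ligand Dll4 averaged 515 ± 286 CPM against 1141 ± 105 CPM in Ehd3-positive wells, and the ephrin Efnb2 219 ± 40.1 against 458 ± 77.7 CPM. Nrp1, a coreceptor for VEGF and semaphorins, averaged 1061 ± 170 against 5193 ± 385 CPM. For Dll4, Efnb2 and Nrp1 all 4 sums of Ehd3-positive wells stood above all 4 arterial sums, while those of Gja5 overlapped.

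Capillary, glomerular and non-endothelial markers were low, while genes of descending vasa recta were not. The median well held 410 CPM summed over 6 genes of that vessel, against 2.07 CPM in Plvap-positive and 2.24 CPM in Ehd3-positive wells, although none of 5 genes that reached 50 CPM in some class was above both classes without overlap. The sum averaged 3193, 3012 and 803 CPM over the number sums of healthy, day 2 and day 10 wells. The day 2 average includes the sum of 2 wells that entered no fit. In the fitted sums 3 of 5 tested genes of this list were below 0 at day 2 against healthy and 2 above. Aqp1 among them was lower in 3 of 3 numbers (log2 difference -4.16, SE 1.33), without passing. The part of these genes in the results on conditions was not tested. The urea transporter Slc14a1, which marks descending vasa recta, was detected in 5 wells. The water channel Aqp1 was detected in 26 wells and Scin, a gelsolin relative, in 47. Each of these 3 genes was thus found in a minority of wells. The list as a whole was not confined to a minority, as its median of 410 CPM shows. Summed over 8 peritubular capillary genes the median well held 662 CPM, against 13403 CPM in Plvap-positive wells. Over 9 glomerular endothelial genes it held 698 CPM, against 24015 CPM in Ehd3-positive wells. The first list holds Plvap and the second Ehd3, which the rule caps in arterial wells and which define the other classes. These gaps are therefore partly fixed by the selection and are no independent check of the label. Lymphatic, fibroblast and immune lists had a median of 0 CPM, Ptprc and Cd3e had no read in any of the 131 wells (0 of 131 wells allows a share of up to 2.29%), and 4 erythroid genes were at 0 as well.

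Tubule transcripts were less rare in healthy wells, and their level moved with condition. The summed CPM of 9 tubule markers had a median of 482 in healthy wells (0 to 213316), 187 at day 2 (0 to 30946) and 0 at day 10 (0 to 5689). It averaged 3050, 631 and 68.6 CPM over the number sums, where day 2 includes the sum of 2 wells that entered no fit. Umod, the major protein of the thick ascending limb, was at 3.24, 178, 6124 and 3458 CPM in the 4 healthy sums, 0, 49.8 and 1308 at day 2 and 0.217, 0, 0.597 and 181 at day 10. Healthy wells thus held the most tubule RNA and wells of day 10 the least, and its part in the results on conditions below was tested only by leaving such wells out.

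Arterial wells differed from both other classes in genes the rule did not name, which are described here without a test because the same reads chose the wells. The genes named were chosen by the ratio of mean CPM to both classes, not by holding in every number. The elastic fibre protein Fbln5 averaged 2536 ± 658 CPM against 890 ± 815 and 105 ± 46.7 CPM, and Fbln2 500 ± 149 CPM against 98.7 ± 45.3 and 11.1 ± 20.8 CPM. In number 2 Fbln5 was lower in arterial wells (1640 CPM) than in Plvap-positive wells (2038 CPM). Of the Notch ligands, Jag1 was at 550 ± 120 CPM against 222 ± 258 and 25 ± 13 CPM and Jag2 at 204 ± 25.1 CPM against 46.3 ± 20.7 and 35.5 ± 12.2 CPM. Jag1 too was lower in number 2 than in Plvap-positive wells (566 against 606 CPM), and of 10 Notch genes that reached 50 CPM in some class 1 was above both classes without overlap and 1 below both. The intermediate filament Vim averaged 3158 ± 285 CPM, against 1210 ± 810 and 70.9 ± 25.6 CPM.

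Vasoactive genes were mixed between the classes. Of 15 genes of the endothelin and vasomotor list that reached 50 CPM in some class, 3 were above both other classes without overlap and 0 below both. Over all 5625 genes these shares were 3.11% and 1.65%. The genes below are picked from that list. Edn1 averaged 662 ± 191 CPM in arterial wells, 259 ± 203 CPM in Plvap-positive wells and 23.7 ± 12 CPM in Ehd3-positive wells. In number 2 Edn1 was lower in arterial wells (470 CPM) than in Plvap-positive wells (553 CPM). By condition its mean in arterial wells was 695 against 315 CPM in Plvap-positive wells when healthy. It was 1326 against 56.6 CPM at day 2, and 372 against 562 CPM at day 10. The mechanosensitive channel Trpv4 averaged 251 ± 20.9 CPM, against 11.8 ± 23.1 and 4.96 ± 3.95 CPM, and Ptgs2, which makes prostaglandin precursors, 79.7 ± 50.6 CPM against 0.206 ± 0.363 and 0.0470 ± 0.0772 CPM. Nos3, the endothelial nitric oxide synthase, was nearer between classes, at 652 ± 179 CPM against 394 ± 239 and 169 ± 13.5 CPM. The endothelin B receptor Ednrb went the other way with conditions pooled, at 410 ± 201 CPM against 976 ± 394 and 854 ± 446 CPM. Its mean was 81.2 CPM in healthy arterial wells, against 989 and 640 CPM, and 540 against 852 and 406 CPM at day 2. At day 10 it was 629 CPM, against 491 and 1315 CPM.

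The remaining leading genes, in order of the smaller of the ratios to the other classes, were Prune2, the glutamine synthetase Glul, Crip1, the carbonic anhydrase Car7, the actin-capping protein Capg, Pkn3, Afap1l2, Lrrc32, the clathrin light chain Cltb, the junction protein Jam2, Azin1, the transcription factor Foxp1, Ehd2 and Rexo2. Sums of Prune2, Capg, Afap1l2 and Azin1 overlapped with those of Plvap-positive or Ehd3-positive wells, and in number 2 Prune2 was at 213 against 293 CPM, Capg at 150 against 180 CPM and Azin1 at 753 against 763 CPM in Plvap-positive wells. Glul averaged 824 ± 285 CPM against 184 ± 117 and 92.2 ± 31.3 CPM, and Jam2 1872 ± 227 CPM against 683 ± 306 and 125 ± 23.5 CPM. Genes of capillary endothelium were lower. Igfbp5, a binding protein of insulin-like growth factors, averaged 75.8 ± 81.5 CPM against 2251 ± 944 and 2699 ± 434 CPM, and the VEGF receptor Kdr 218 ± 16 CPM against 1337 ± 559 and 2385 ± 312 CPM. Fam167b, Cd300lg, Ptpru, Ppap2b, Stab1, Dhrs3, Flt4 and the fatty acid carrier Fabp4 were lower as well, Fabp4 at 382 ± 188 CPM against 1927 ± 767 and 1206 ± 396 CPM. Arterial sums of Cd300lg, Stab1, Dhrs3 and Flt4 overlapped with sums of another class.

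**Figure D1:**
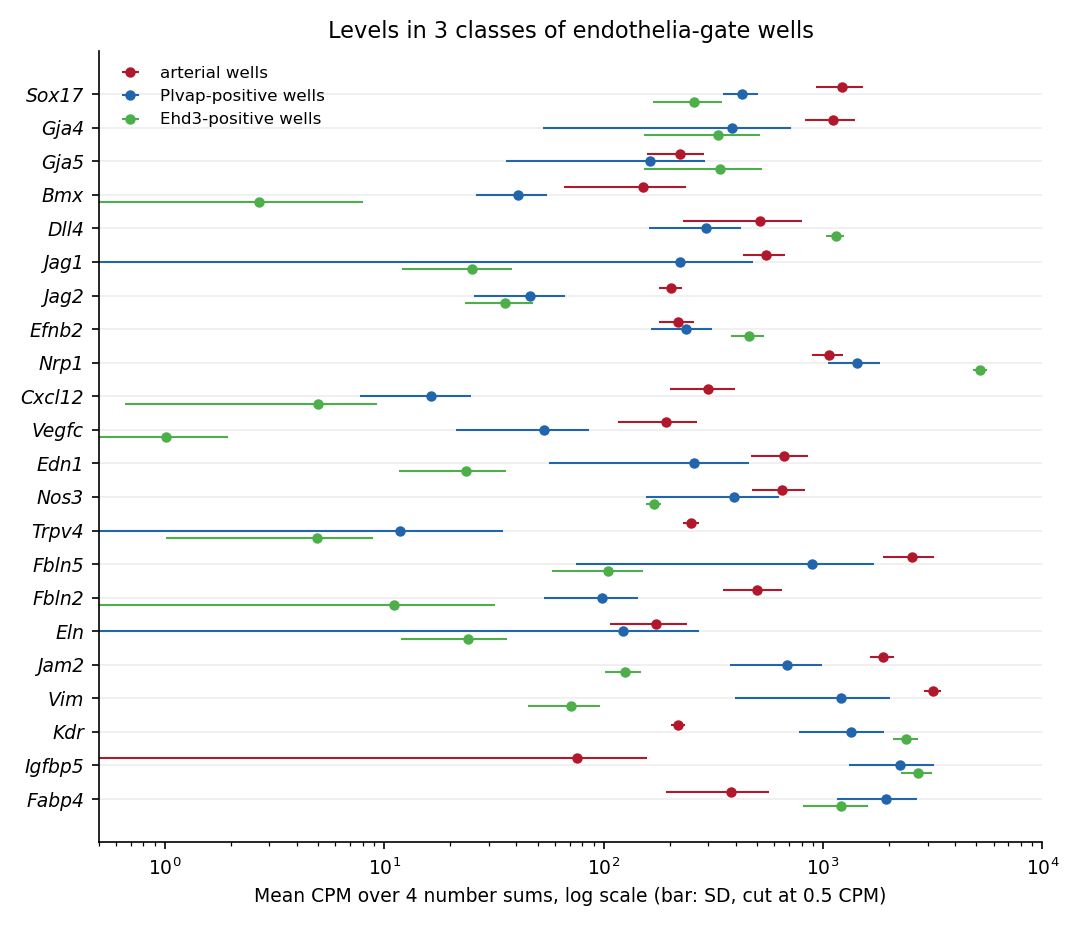
Mean CPM of 22 genes (log axis) in arterial, Plvap-positive and Ehd3-positive wells. Values are the mean over the sums of 4 numbers with the SD, each sum pooling the 3 conditions. Sox17, Gja4, Jag1, Fbln5 and Trpv4 were highest in arterial wells, Dll4, Efnb2 and Nrp1 were highest in Ehd3-positive wells, and Kdr, Igfbp5 and Fabp4 were lowest in arterial wells.

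The 131 wells were not uniform, and the genes that varied together were compared by Spearman's rho of CPM over the wells, as a description without a p. Wells share plates and depth, many values are 0, and the 3 conditions were pooled. A well low in Tspan8 entered only through Ssu2, S100a4 or Efhd1, so that values of rho with these rule genes are partly set by the selection. Of 4360 genes, those most like Tspan8 were the taurine transporter Slc6a6 (rho 0.53), Glul (0.48), Eltd1 (0.43), Cst3 (0.42) and Fxyd6 (0.39). Those most like Ssu2 were Ahnak (0.45), Podxl (0.43), Pi16 (0.39), Slc6a6 (0.38) and Slc9a3r2 (0.37). Tspan8 and Ssu2 had a rho of 0.24 with each other.

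Several arterial genes ran against Tspan8 within these wells, which the rule chose partly by Tspan8. Its rho with Dll4 was -0.42, with Gja5 -0.34, with Stmn2 -0.29 and with Plat, a protease gene of glomerular endothelium, -0.29. Gja5 was instead most like Vegfc (0.47) and Vwf (0.46), and Vegfc and the tight junction gene Cldn5 had a rho of 0.59. Of the 28 wells with Gja5, 15 also had Tspan8 (53.6%, against 102 of 131 wells overall) and 15 also had Vegfc, which was detected in 30 wells. Gja5 and the comparison with it were chosen after the values were seen.

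A smaller group of wells carried Aqp1. Of its 26 wells, 24 had Cldn5, 18 had Scin and 25 had Sox17. Aqp1 was most like Hpgd (0.53) and Cldn5 (0.47), and S100a4 was most like Plac8 (0.48), which was detected in 61 wells, 60 of them with S100a4. Of the 63 wells with Ssu2, 3 had Aqp1.

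**Figure D2:**
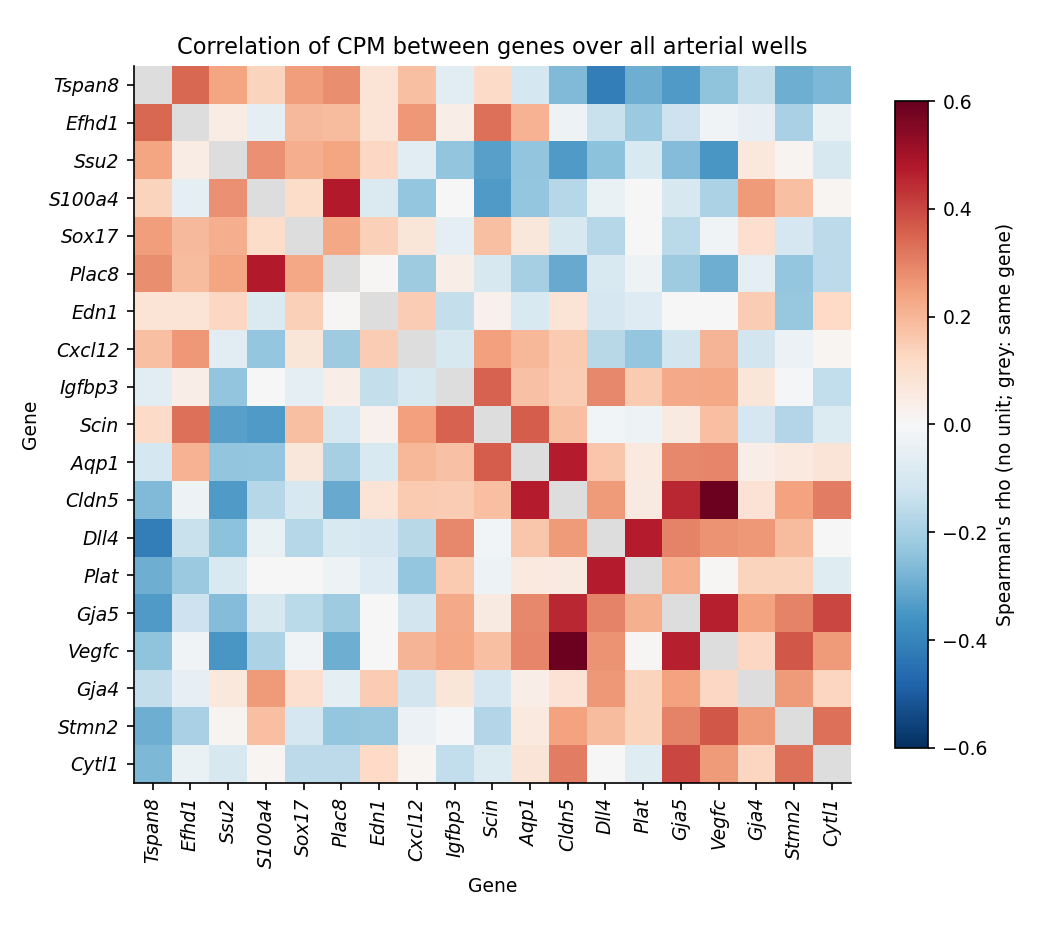
Spearman's rho (colour, no unit) between the CPM of 19 genes over the 131 arterial wells; both axes list the genes. Tspan8 and Efhd1 were correlated positively (0.34), Tspan8 and Dll4 negatively (-0.42), and Gja5, Vegfc and Cldn5 positively with each other (0.45 to 0.59).

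The share of the endothelia gate that met the rule was compared between conditions over the 4 numbers. It was 5.56%, 15.6%, 25% and 19.8% in healthy kidneys, 6.14%, 3.17%, 12.5% and 11.8% at day 2, and 7.87%, 10.9%, 20.3% and 8.73% at day 10. The 3 ranges overlapped. The means were 16.5% ± 8.25, 8.41% ± 4.50 and 12% ± 5.71 (SD, n = 4). None of the 3 differences passed an exact two-sided permutation test, with p = 0.143 for day 2 against healthy (8.70% of 368 wells pooled, against 15.3% of 380), p = 0.4 for day 10 against healthy, p = 0.371 for day 10 against day 2, and an adjusted p of 0.4 for each; the smallest p this design allows is 0.0286. Counts of sorted wells do not give the number of arterial cells in the kidney, and a change in the rule genes or in how many cells survive digestion could not be told apart from a change in cell number.

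Reads on genes per spike-in read, a measure of RNA in the well against a constant amount of added RNA, gave no difference between conditions either. Medians over the wells of a sum were 357, 291, 217 and 187 in healthy kidneys, 159, 286 and 320 at day 2 and 165, 241, 329 and 208 at day 10, which overlap. The differences in mean log2 ratio were -0.06, -0.16 and -0.09 for day 2 against healthy, day 10 against healthy and day 10 against day 2, with an adjusted p of 0.886 in exact two-sided permutation tests. The median number of reads on genes per well was 296472 in healthy wells, 339368 at day 2 and 446785 at day 10, so that depth moved with condition, and its part in the results was not tested.

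**Figure D3:**
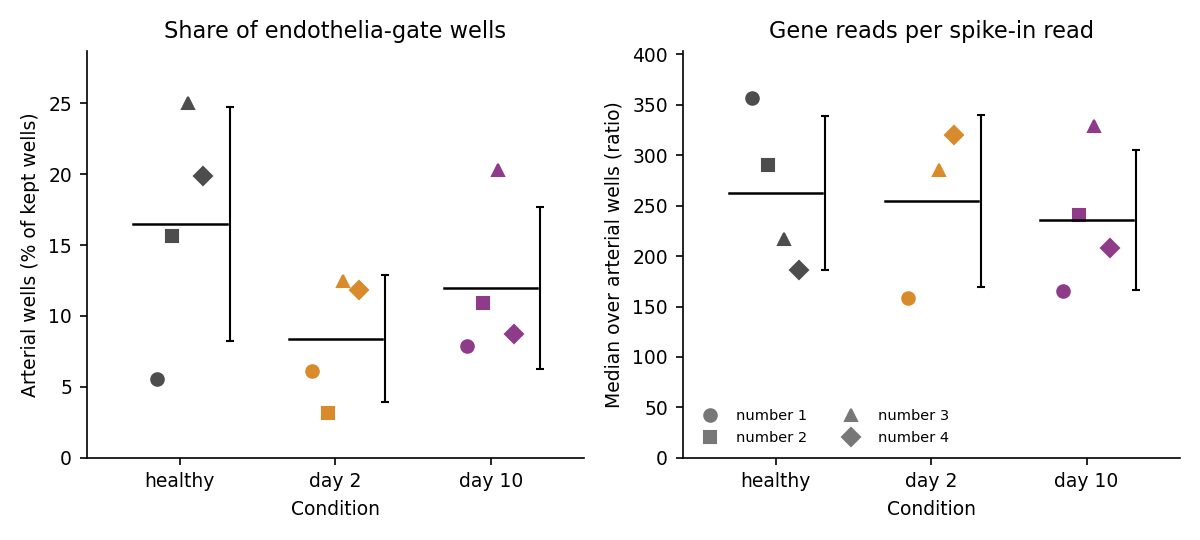
Left, arterial wells as a percent of kept endothelia-gate wells; right, median gene reads per spike-in read in arterial wells; by condition, with the number as the symbol, the mean as a line and the SD as a bar. The ranges of the 3 conditions overlap in both panels, and the sum of 2 wells at day 2 is left out of the right panel.

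The effect of obstruction on expression was tested with edgeR's quasi-likelihood test on the 11 sums, with the number as a block and Benjamini-Hochberg adjustment over 10723 genes. At day 10 against healthy 1 gene passed an adjusted p of 0.05 (0.00933% of genes tested), Igfbp3, and 345 genes had an unadjusted p under 0.05. At day 2 against healthy 0 genes passed (0% of genes tested), with 383 at an unadjusted p under 0.05, and at day 10 against day 2 0 genes passed (0%), with 316. DESeq2's Wald test on the same sums called 336 genes at day 2, 279 at day 10 and 287 between the days, and limma on mean CPM called 0, 5 and 0. The spread between sums was wide, with a biological coefficient of variation of 1.36 and 5 residual degrees of freedom.

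Igfbp3 encodes a secreted binding protein of insulin-like growth factors (chr11:7206086-7215498) and is also a marker of peritubular capillary endothelium. In the 4 healthy sums it stood at 452, 213, 413 and 678 CPM, in the 3 sums of day 2 at 2195, 795 and 792 CPM, and in the 4 sums of day 10 at 2527, 2786, 5125 and 7389 CPM. All sums of day 10 lay above all sums of day 2, which lay above all healthy sums; genes ordered so made up 3.2% of those tested for day 10 above day 2 and 2.3% for day 2 above healthy, and genes with day 2 wholly below healthy 3.74%. The rise at day 10 was 3.41 ± 0.42 on the log2 scale (SE), in 4 of 4 numbers, with an adjusted p of 0.0216 in edgeR. The gene was detected in 19 of 58 healthy wells, 14 of 32 wells of day 2 and 26 of 41 wells of day 10.

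That call did not hold under every setting. Of the alternatives, a minimum of 5 wells per sum kept the same sums and so repeats the main fit. Over 15 alternatives the change stayed between 3.11 and 4.07, and 6 of them left it above an adjusted p of 0.05: without number 2 (0.243), with sums per plate (0.211), without wells holding over 200 CPM of tubule markers (0.188, 76 wells left), without wells holding over 200 CPM of mural, fibroblast or immune markers (0.0731), with a rule sum of at least 600 CPM (0.052), and with Plvap under 50 CPM (0.676, 92 wells left). The capillary gene Plvap itself, capped by the rule, was at 43.0, 69.6, 16.9 and 21.4 CPM in healthy sums and at 31.9, 40.5, 48.0 and 53.0 CPM at day 10, which overlap. Of the capillary genes that the rule does not cap, Kdr and Gpihbp1 had higher values at day 10 without passing. Kdr was at 39.8, 126, 152 and 147 CPM in healthy sums and 299, 425, 310 and 210 CPM at day 10, without overlap, and Gpihbp1 at 1.39, 0, 0.471 and 40.5 against 882, 1097, 16.9 and 152 CPM. The 8 peritubular genes together, Igfbp3 among them, averaged 680 CPM in healthy wells, 2128 CPM at day 2 and 5315 CPM at day 10. The day 2 average includes the sum of 2 wells that entered no fit. Cd36 and Rgcc did not follow (log2 differences of -1.84 ± 2.46 and -2.91 ± 1.72 at day 10, not passing). The part of wells with capillary transcripts in the Igfbp3 result was examined only through the Plvap limit of 50 CPM, under which it did not pass.

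Ednrb, the endothelin B receptor (chr14:103814615-103844508), was higher at both days than in healthy kidneys in every sum, without passing. It was at 110, 185, 6.35 and 26.8 CPM in healthy sums, 777, 439 and 386 CPM at day 2 and 558, 1145, 374 and 400 CPM at day 10, so that both obstructed groups lay above the healthy sums and overlapped with each other. The log2 differences were 3.81 ± 0.66 at day 2 (adjusted p = 0.301 in edgeR) and 3.49 ± 0.60 at day 10 (adjusted p = 0.15 in edgeR). Detected wells numbered 8 of 58 healthy, 15 of 32 at day 2 and 22 of 41 at day 10.

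Jam2, an adhesion molecule of endothelial junctions (chr16:84774123-84826380), was at 751, 877, 806 and 1063 CPM in healthy sums, 2225, 3078 and 2872 CPM at day 2 and 2664, 2053, 2439 and 1853 CPM at day 10. Again no obstructed sum reached down to the healthy range, and the log2 differences of 1.61 ± 0.27 and 1.37 ± 0.24 had adjusted p values of 0.301 and 0.15 in edgeR. Litaf, a regulator of endosomal sorting and inflammatory transcription, was at 201, 537, 228 and 117 CPM in healthy sums, 578, 1267 and 721 CPM at day 2 and 1119 ± 271 CPM at day 10 (mean ± SD, n = 4), with each sum of day 10 above the highest healthy sum. Its log2 differences were 2.10 ± 0.39 and 2.25 ± 0.35, with adjusted p values of 0.306 and 0.101 in edgeR.

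Cst3, the secreted protease inhibitor cystatin C, ran the other way. It stood at 3721, 4718, 3830 and 3556 CPM in healthy sums, 2215, 2305 and 2062 CPM at day 2 and 1404, 1066, 1947 and 1460 CPM at day 10. The 3 groups did not overlap, and the log2 difference at day 10 was -1.45 ± 0.23 (adjusted p = 0.101 in edgeR). Genes with all sums of day 10 above all healthy sums made up 1.53% of those tested, and genes with all sums below made up 1.66%. Litaf, Ednrb and Cst3 passed with limma at day 10, as did Igfbp3 and the protease inhibitor gene Serpine2, and Cst3 was the sole gene to pass when sums were made per plate (adjusted p = 0.0255 in edgeR).

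The other genes of smallest p did not pass. At day 2 the ectonucleotidase Entpd1 had a log2 difference of 2.04 ± 0.41 (adjusted p = 0.434 in edgeR) and Serpine2 of 3.28 ± 0.71 (adjusted p = 0.645 in edgeR), and at day 10 Ctla2a, a cysteine protease inhibitor, of 3.03 ± 0.59 (adjusted p = 0.296 in edgeR). Below healthy at day 2 stood the nuclear RNA Malat1 (-0.71 ± 0.16), the proteoglycan Bgn at 1.56, 0 and 1.48 CPM against 188 to 891 CPM in healthy sums, Kank4 at 0 CPM in all 3 sums against 106 to 140 CPM, Cytl1 at 0 CPM in all 3 sums against 158 to 2428 CPM, and Chmp6 at 0, 0.317 and 0.212 CPM against 31.0 to 109 CPM. Cytl1 was detected in 7 of 58 healthy wells and in 0 of 32 wells of day 2, which allows a share of up to 9.38%. Kank4 was detected in 15 of 58 healthy wells and 1 of 32 wells of day 2, and Chmp6 in 13 and 1. For both genes that detection at day 2 fell in number 2, whose sum of 2 wells entered no fit. At day 10 the genes of smallest p below healthy besides Cst3 were 3 genes of tubule cells, Umod, Egf and Kap, and the deacetylase gene Hdac10, at 0 to 4.46 CPM against 27.3 to 186 CPM.

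**Figure D4:**
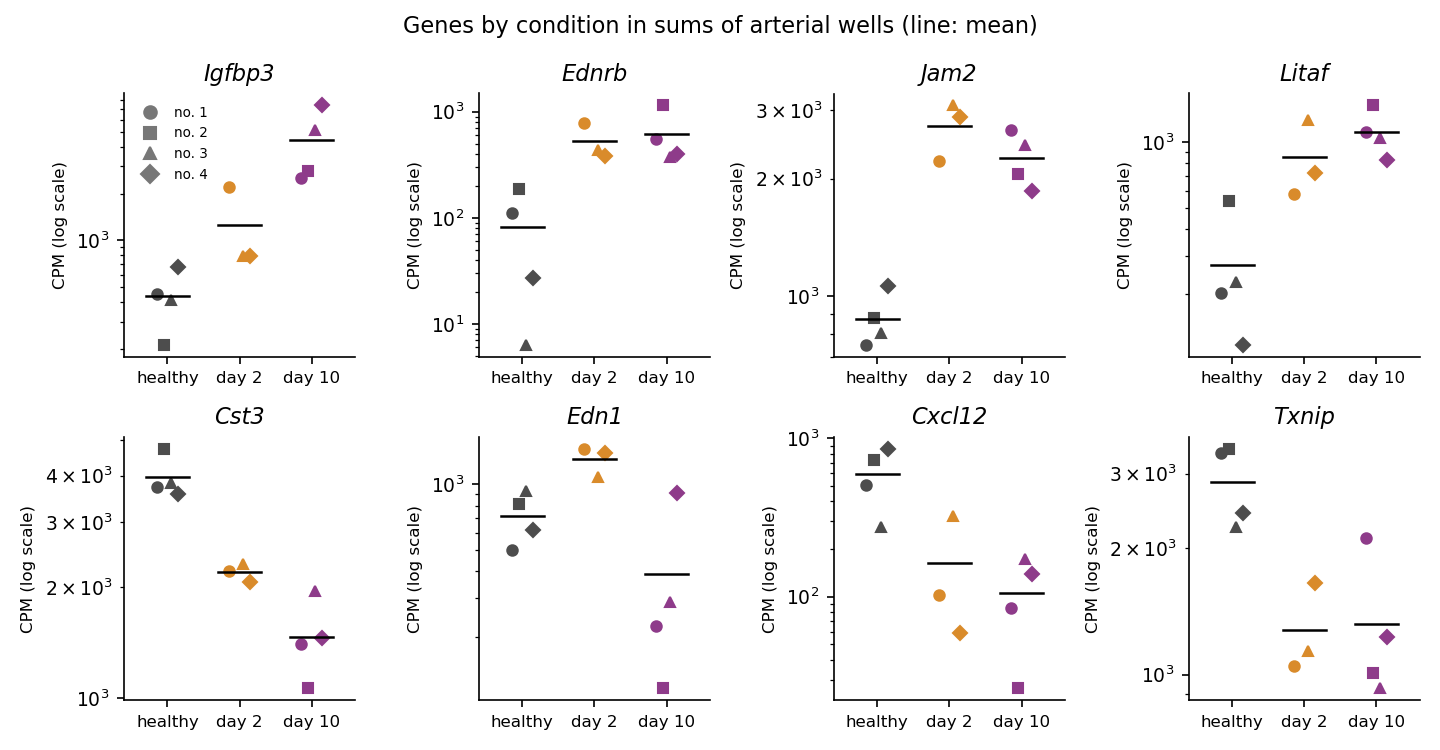
CPM (log axis) of 8 genes in the sums of arterial wells by condition, with the number as the symbol and the mean as a line. Igfbp3, Ednrb, Jam2 and Litaf are higher and Cst3 is lower in all sums of day 10 than in all healthy sums, and of these changes Igfbp3's passed the test (adjusted p = 0.0216 in edgeR).

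None of the rule genes or the fixed endothelial markers passed. Tspan8 was at 3075, 2206, 2347 and 3468 CPM in healthy sums, 2944, 1796 and 2727 CPM at day 2 and 3745, 2623, 2688 and 1453 CPM at day 10, and the 4 rule genes had log2 differences between -0.54 and 0.37 against healthy, none passing the test. The rule requires these genes, which limits what their change can be. Sox17 was at 1145 to 1319 CPM in healthy sums, 1294 to 2227 CPM at day 2 and 488 to 1693 CPM at day 10, and Gja5 at 87.0 to 343, 0 to 502 and 85.4 to 447 CPM. Their log2 differences were 0.27 ± 0.35 and -0.34 ± 0.31 for Sox17 and 0.36 ± 1.77 and 0.32 ± 1.45 for Gja5, and leaving out single numbers or wells turned their sign. Pecam1, a marker of all endothelium, was lower in the 3 sums of day 2 (1261, 1245 and 1096 CPM) than in the healthy sums (2430, 1750, 2606 and 2541 CPM), a log2 difference of -0.99 ± 0.29 that did not pass (adjusted p = 1 in edgeR). Cdh5, the cadherin of endothelial junctions, differed by 0.06 ± 0.43 at day 2 and 0.74 ± 0.40 at day 10 on the log2 scale.

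Over the 27 arterial genes, all tested, 0 passed in either comparison. The median log2 difference was -0.65 at day 2 and -0.38 at day 10, against -0.36 and -0.10 over all genes, and 18 and 17 of the 27 were below 0. The chemokine gene Cxcl12 was at 508, 729, 274 and 856 CPM in healthy sums, 103, 324 and 59.3 CPM at day 2 and 84.7, 26.4, 174 and 140 CPM at day 10, with a log2 difference at day 10 of -2.79 ± 0.71 that did not pass (adjusted p = 1 in edgeR). It was detected in 33 of 58 healthy wells, 10 of 32 wells of day 2 and 9 of 41 wells of day 10. Ltbp4, a microfibril protein that binds latent TGF-beta, was at 1017 to 1406 CPM in healthy sums, 452 to 644 CPM at day 2 and 485 to 964 CPM at day 10, which do not overlap with healthy. Its differences of -1.18 ± 0.37 and -0.74 ± 0.33 did not pass (adjusted p = 1 in edgeR).

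The endothelin and vasomotor list held 22 genes, of which 17 were tested and 0 passed. Edn1 was at 500, 814, 931 and 617 CPM in healthy sums, 1456, 1082 and 1393 CPM at day 2 and 224, 116, 290 and 918 CPM at day 10. All sums of day 2 lay above all sums of both other groups, and the log2 difference between day 10 and day 2 was -1.92 ± 0.53 (adjusted p = 1 in edgeR). Ece1, which processes endothelin, was at 911 to 1239 CPM at day 2 against 340 to 775 CPM in healthy sums (1.03 ± 0.35). Trpv4 was at 65.4, 61.8, 135 and 272 CPM at day 10 against 355 to 392 CPM in healthy sums (-1.61 ± 0.59), and neither passed.

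Of 15 elastic fibre genes tested 12 were below 0 in each comparison with a median of -1.18 at day 2 and -1.15 at day 10, and 0 passed. Elastin (Eln) was at 164 to 530 CPM in healthy sums and 26.4 to 230 CPM at day 10 (-1.68 ± 0.73). Of 10 flow-responsive genes tested 0 passed, and Txnip, an inhibitor of thioredoxin, was at 3364, 3433, 2244 and 2413 CPM in healthy sums, 1048, 1141 and 1651 CPM at day 2 and 2113, 1012, 929 and 1228 CPM at day 10, without overlap with healthy (-1.15 ± 0.28 at day 10, adjusted p = 0.942 in edgeR). Thbd, the anticoagulant receptor thrombomodulin, differed by -0.79 ± 0.31 at day 10. Of 13 basement membrane genes tested 0 passed, and the collagen gene Col4a2 was at 247 to 796 CPM at day 10 against 84.2 to 282 CPM in healthy sums, which overlap (1.71 ± 0.46).

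No gene of the Notch and TGF-beta lists passed. Of 13 Notch genes tested, 0 passed, with medians of -0.52 at day 2 and 0.38 at day 10. Dll4 was at 113 to 526 CPM in healthy sums and 344 to 1893 CPM at day 10 (1.49 ± 0.63), and Jag1 differed by -0.58 ± 0.45. Of 18 TGF-beta and BMP genes tested 0 passed, and the BMP target Id1 differed by -0.79 ± 0.30 and the receptor gene Tgfbr2 by 1.19 ± 0.44 at day 10.

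Genes of the acute phase and of gp130 cytokines were mostly above 0 without passing. Of 16 tested, 14 were above 0 at day 2 and 13 at day 10, with medians of 1.38 and 1.37 against -0.36 and -0.10 over all genes. Lrg1, a secreted glycoprotein, was at 0, 0.315, 0.471 and 1.79 CPM in healthy sums, 1.04, 22.2 and 78.2 CPM at day 2 and 193, 148, 27.9 and 228 CPM at day 10, detected in 1 of 58, 6 of 32 and 12 of 41 wells. Socs3, the feedback inhibitor of these cytokines, was at 115 to 424 CPM in healthy sums, 846 to 1312 CPM at day 2 and 102 to 1181 CPM at day 10 (1.75 ± 0.62 at day 2). These groups do not overlap for Lrg1 at day 10 and for Socs3 at day 2, and the adjusted p values in edgeR were 0.359 and 1.

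Genes of antigen presentation, adhesion and other vessels gave 1 further pattern each. H2-K1, a class I heavy chain, was at 2211 to 2771 CPM at day 10 against 1236 to 2041 CPM in healthy sums, and the peptide transporter gene Tap1 at 88.4 to 223 against 6.48 to 77.8 CPM (0.52 ± 0.22 and 2.56 ± 1.06). The venous genes Vwf and Selp were at 64.9 to 107 and 1.2 to 24.2 CPM in healthy sums and at 0 to 61.0 and 0 to 0.434 CPM at day 10. The log2 difference of Kdr at day 10 was 1.54 ± 0.58, and that of Gpihbp1, which carries lipoprotein lipase and whose sums overlapped, rests on healthy sums near 0. Aqp1 was at 4199, 229, 278 and 4608 CPM in healthy sums and 75.4, 29.5, 1362 and 32.3 CPM at day 10. None of these 7 genes passed.

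Between day 10 and day 2 the genes of smallest p were, besides Igfbp3 (2.06 ± 0.47, adjusted p = 1 in edgeR) and Edn1, Kank4, Chmp6, Sec22a and Tipin, higher at day 10, and Hdac10, Farsb, Kap and Gpx3, lower at day 10. Kank4 was at 28.0 to 87.4 CPM at day 10 and at 0 CPM in all 3 fitted sums of day 2. In the left-out sum of number 2 at day 2, Kank4 and Chmp6 were each detected in 1 well. Sec22a was at 0 to 113 CPM and Tipin at 32.8 to 125 CPM at day 10, against at most 0.212 CPM each at day 2. Kap and Gpx3 are made by tubule cells, and their levels at day 10 were 0 to 1.45 and 0 to 54.7 CPM.

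Whether the arterial wells responded in a way of their own was tested as the difference between their change and that of another class, in edgeR with the number as a block. Sums of both classes with the same condition and number, taken as the same mouse, entered as separate libraries. That pairing was not in the fit, so the p-values do not measure differences within mice. Against Plvap-positive wells 5 of 12650 genes passed at day 10 (0.0395%; 4 higher, 0.0316%, and 1 lower, 0.00791%) and 3 at day 2, all lower (0.0237%). Against Ehd3-positive wells 3 of 12725 genes passed at day 2 (0.0236%; 1 higher, 0.00786%, and 2 lower, 0.0157%) and 0 at day 10 (0%), where 578 genes had an unadjusted p under 0.05; DESeq2 and limma were not run on these differences. Plvap-positive wells were few, with 2 sums at day 10 of 3 and 11 wells and 3 sums each in healthy kidneys and at day 2, so that the first tests rest on few sums. Levels in this part are CPM of the sums without the scaling factors used above.

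Igfbp3 changed differently in arterial and Plvap-positive wells. In Plvap-positive wells it was at 4294, 1015 and 1759 CPM in healthy sums, 8858, 5404 and 6921 CPM at day 2 and 1824 and 1233 CPM at day 10, while in arterial wells of day 10 it reached 2548 to 6815 CPM. Arterial wells thus lay below the capillary wells when healthy and above them at day 10. The difference of the changes was 3.63 ± 0.67 on the log2 scale at day 10 (adjusted p = 0.034 in edgeR, and 0.0796 with DESeq2's size factors) and -0.52 ± 0.58 at day 2 (adjusted p = 0.985 in edgeR). In Ehd3-positive wells Igfbp3 was at 1.86 to 92.5 CPM when healthy and 18.0 to 322 CPM at day 10, and the difference from arterial wells was 1.62 ± 1.45 (adjusted p = 1 in edgeR).

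Ednrb passed against Plvap-positive wells at day 10 and against Ehd3-positive wells at day 2, and not on the other day of either class. Plvap-positive wells held 1696, 493 and 778 CPM when healthy and 820 and 162 CPM at day 10, and Ehd3-positive wells held 501 to 871 CPM when healthy and 136 to 742 CPM at day 2. Both classes thus carried Ednrb in healthy kidneys, where the arterial wells held 5.91 to 182 CPM. The difference of the changes was 5.72 ± 0.97 against Plvap-positive wells at day 10 (adjusted p = 0.0187 in edgeR) and 4.63 ± 0.73 against Ehd3-positive wells at day 2 (adjusted p = 0.0133 in edgeR). Against Plvap-positive wells at day 2 it was 3.65 ± 0.81 (adjusted p = 0.223 in edgeR). Against Ehd3-positive wells at day 10, which held 490 to 2612 CPM, it was 2.68 ± 0.67 (adjusted p = 0.702 in edgeR). Without the block the adjusted p rose to 0.579 and 0.52 in edgeR, and leaving out number 2 for the first, or number 1, 3 or 4 for the second, also took it above 0.05 (0.0826 and 0.0872 to 0.097).

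For the other genes past the threshold 1 of the classes had sums near 0, except for Malat1. Capg was at 0, 0 and 0.953 CPM in healthy Plvap-positive sums and at 139 to 173 CPM in those of day 2, while arterial wells held 109 to 310 CPM when healthy and 190 to 620 CPM at day 2, so that the difference was lower in arterial wells at both days. Mal, a membrane raft protein, and Acsl5, a fatty acid activating enzyme, were at 10.9 to 14.4 and 1.40 to 1.80 CPM in the 2 Plvap-positive sums of day 10, against 729 to 918 and 97.2 to 556 CPM in the healthy ones, while arterial wells held 292 to 988 and 122 to 242 CPM at day 10. At day 2 Bgn and Malat1 differed from Plvap-positive wells and Kank4 and Chmp6 from Ehd3-positive wells, all lower in arterial wells. Kank4 and Chmp6 were each detected in 1 arterial well of day 2, in the sum of number 2 that entered no fit. For Malat1, whose levels are far from 0, the difference was -0.99 ± 0.17 (adjusted p = 0.0315 in edgeR). Each of these 7 genes' calls except Mal's was lost without 1 or more of the numbers, and those of Bgn, Capg and Malat1 at day 2 also without the block (adjusted p = 0.232, 0.0575 and 0.498 in edgeR); Malat1's was lost with DESeq2's size factors too (0.237).

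Jam2, Litaf and Cst3 were compared in the same way after their values were seen. Jam2 in Ehd3-positive wells was at 34.5 to 94.7 CPM when healthy and 105 to 217 CPM at day 10, and Litaf at 237 to 484 and 1037 to 1142 CPM, so that both genes were higher at day 10 in that class too. The differences from arterial wells were 0.39 ± 0.43 and 0.38 ± 0.45 at day 10 (adjusted p = 1 in edgeR for both). For Cst3 the difference was -1.14 ± 0.27 at day 10 (adjusted p = 0.533 in edgeR), with Ehd3-positive wells at 625 to 982 CPM when healthy and 457 to 920 CPM at day 10. At day 2 the differences of Jam2 and Litaf from Ehd3-positive wells were 0.74 ± 0.44 and 0.71 ± 0.48, and those from Plvap-positive wells were 0.61 ± 0.60 and 0.74 ± 0.63 at day 2 and 0.84 ± 0.70 and 0.59 ± 0.69 at day 10. None of these passed, which does not show that the classes responded alike.

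Other genes of smallest p did not pass. They were Tspan8, Ednrb, Dusp26, Fam198b and Tgfb2, higher in the arterial change than in the Plvap-positive one at day 2, and Med24, Rasd1, Zc3h12c and Bgn, lower at day 10. Against Ehd3-positive wells they were Mapk11, Irf8, Fbln5 and Ssu2, higher at day 2, Tipin, Mavs and C2cd2, lower at day 2, Mapk11, Lrg1, Ppap2a, Cggbp1 and Tmem26, higher at day 10, and Fmo1, Prkrip1, Rab4a, Cst3 and Fabp4, lower at day 10. Tspan8 and Ssu2 are rule genes, capped in the other classes. Lrg1 differed by 6.40 ± 1.28 at day 10 (adjusted p = 0.216 in edgeR), with Ehd3-positive wells already at 31.9 to 57.3 CPM when healthy, where arterial sums held at most 1.77 CPM.

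**Figure D5:**
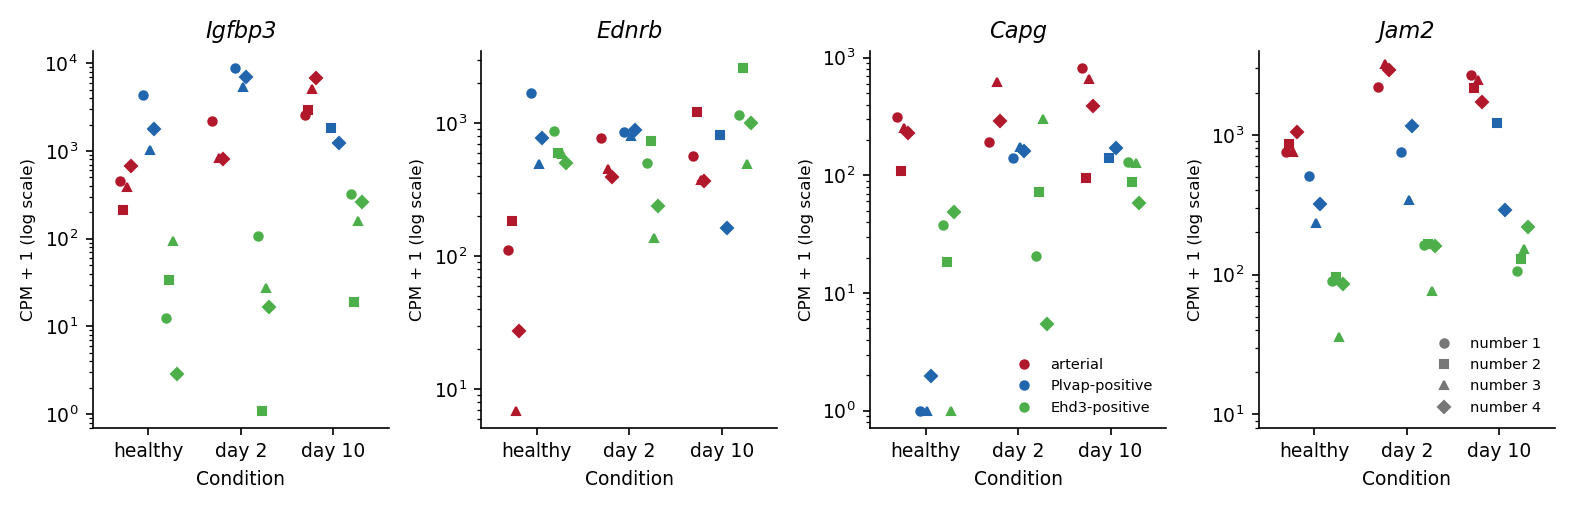
CPM plus 1 (log axis) of 4 genes in sums of arterial, Plvap-positive and Ehd3-positive wells by condition, with the number as the symbol. At day 10 Igfbp3 in arterial sums lies above the 2 Plvap-positive sums, Ednrb in healthy arterial sums lies below both other classes, and Jam2 is higher in arterial sums than in both other classes in every condition.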

How the data were processed

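Reads of single cells from 6 plates were mapped with STAR to mm10, per the submitters' processing notes; the counter, annotation, strand setting and filters are not given in the sources used here. The authors deposited raw read counts per gene and well, raw counts of 92 ERCC spike-in sequences and a layout of each plate; no row without a gene name entered the totals. Entries sharing a symbol were added (771 entries of 279 symbols), so near-identical copies and overlapping or antisense genes are uncertain. Number 1 spans plates 1 and 2, number 2 plate 3, number 3 plate 4 and number 4 plates 5 and 6. Counts were summed per condition and number and tested with edgeR 4.0.16 (filterByExpr, TMM, quasi-likelihood F test, number as block, Benjamini-Hochberg, threshold 0.05), after tests on simulated data. SE is the log2 change divided by the root of F. Shares and spike-in ratios were compared by exact permutation tests without the block, and by sign flips within numbers as an alternative. Whether numbers mark separate mice is assumed; if not, p-values measure the spread between sums only. The numbers come from the layout and mark shared plates, and same-numbered sums deviated together weakly (median r 0.0244 over 10 pairs, against -0.00786 over 30 pairs of different numbers), below the 0.1 that would pair them by their values; the block therefore stands for shared plates.

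Genes named are those past the threshold with one sign in every number (up to 8 per direction, mean log2 CPM of at least 4), the 5 of smallest p where fewer than 3 passed, the 2 of smallest p in each described list, fixed markers, and for levels the 25 highest and 10 lowest by ratio. Plvap-positive and Ehd3-positive wells are endothelia-gate wells with a rule sum under 300 CPM and Plvap of at least 200 or Ehd3 of at least 100 CPM, not both. The members, markers and 32 gene lists were chosen with earlier results of these data known. Alternatives were DESeq2, limma, other scaling, no filter, no block, sums per plate, at least 5 wells per sum, other rules for wells and leaving out each number; leaving out wells with tubule markers, and Plvap under 50 CPM, were added after the data were seen. Gene positions are from RefSeq's GRCm38.p6, which may differ from the authors' annotation. Counting intervals cover counting error only.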

Additional observations from a re-analysis of the deposited data

Results flagged for a closer look

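Sums far from the others of their group were sought in 68 groups of 4, of which 8 had one; chance alone gives about 1 in 20. At day 10 these were number 4 for Cytl1 (205 CPM, against at most 1.59), Farsb (46.7 CPM), Kap (1.45 CPM) and Umod (181 CPM), number 2 for Hdac10 (4.46 CPM) and number 1 for Ssu2 (387 CPM). In healthy kidneys they were number 2 for Entpd1 (446 CPM) and number 4 for Sec22a (173 CPM).

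Changes that differed between the arterial wells and another class, by a test of the difference itself (edgeR, log2 scale), were 11. Against Plvap-positive wells at day 2 they were Bgn (-11.84), Capg (-8.29) and Malat1 (-0.99), and at day 10 Acsl5 (8.40), Mal (7.46), Ednrb (5.72), Igfbp3 (3.63) and Capg (-8.28). Against Ehd3-positive wells at day 2 they were Ednrb (4.63), Kank4 (-12.02) and Chmp6 (-8.51). The values of Bgn, Capg, Acsl5, Mal, Kank4 and Chmp6 rest on sums at or near 0 and are not folds.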

How the results depend on the processing

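The count of genes past the threshold moved with the method and, for the class differences, with single numbers. Without a filter on low counts edgeR called 18 genes at day 2, 35 at day 10 and 11 between the days, and DESeq2 336, 279 and 287; limma called 5 at day 10. Leaving out single numbers gave 0 to 1, 0 to 4 and 0 to 1. The day 10 count was 0 without wells of over 200 CPM of tubule markers and 0 with Plvap under 50 CPM, which gave 1 between the days (Spp1). Without the replicate block 2 genes passed at day 2 (Jam2 and Kank4), 0 differed from Plvap-positive wells and 5 from Ehd3-positive wells at day 2. For these differences no filter gave 26 and 27 against Plvap-positive and 13 and 9 against Ehd3-positive wells (day 2 and day 10), and leaving out numbers 0 to 49, 3 to 69, 1 to 9 and 0 to 1. The causes were not tested.

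Signs turned for these values (log2 scale). At day 2 S100a4 was 0.019 with DESeq2's size factors, 0.0033 without the replicate block, 0.019 with DESeq2, 0.30 per plate, 0.31 with limma and -0.49 to 0.18 without single numbers. Efhd1 was 0.030 with DESeq2's factors and with DESeq2 (-0.15 to 0.22 without numbers), and Edn1 -0.58 with Plvap under 50 CPM. Gja5 was -0.57 per plate, -1.29 with limma, -11.81 with Plvap under 50 CPM and -2.04 to 2.07 without numbers, and Sox17 -0.88 without tubule-marker wells. Cdh5 was -0.35 per plate, -0.13 with a rule sum of 600, -0.12 without mural, fibroblast or immune wells, -0.12 with Plvap under 50 CPM and -0.25 to 0.39 without numbers. Plvap was 0.0016 with DESeq2, 0.18 per plate, 0.022 with a rule sum of 600 and -1.01 to 0.54 without numbers. At day 10 leaving out numbers gave Tspan8 -0.22 to 0.25, Efhd1 -0.39 to 0.17, Gja5 -0.43 to 1.47, Sox17 -0.59 to 0.020, Pecam1 -0.25 to 0.21 and Plvap -0.015 to 0.92, which was -1.28 when kept under 50 CPM. Between the days Ssu2 was 0.15 without tubule-marker wells (-0.41 to 0.11 without numbers), Tspan8 -0.13 per plate and -0.083 with limma (-0.086 to 0.49), and Efhd1 0.065 without mural, fibroblast or immune wells. Gja5 was 0.020 without the replicate block, 3.62 per plate, 2.12 with limma, 0.12 with a rule sum of 600, 0.21 without mural, fibroblast or immune wells, 0.052 without tubule-marker wells, 13.61 with Plvap under 50 CPM and -0.60 to 2.06 without numbers. Sox17 was 0.23 without tubule-marker wells, and Plvap -0.025 per plate, -0.29 when under 50 CPM and -0.55 to 1.33 without numbers. Among class differences Rasd1 ran from -13.07 to 2.01 and Igfbp3 at day 2 from -1.47 to 0.043 against Plvap-positive wells, Jam2 at day 10 from -0.026 to 0.68 against Ehd3-positive wells without numbers, and Litaf at day 10 was -0.22 without the replicate block. Reads per spike-in read at day 2 differed by 0.00083 with the replicate block, 0.032 in wells of 100000 reads and -0.41 to 0.41 without numbers, at day 10 by -0.41 to 0.16, and between the days by 0.0042 with a rule sum of 600 and -0.25 to 0.15 without numbers. The wide spread between 11 sums limits all of these tests.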
